A study of Mus musculus with 8 samples.

Results

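The protocadherin genes of the mouse were examined in a list of binding sites of ASH2L, which is needed by KMT2 enzymes for the methylation of histone H3 at lysine 4. Members were the protein-coding genes of the GENCODE annotation whose symbol is Pcdh followed by a number, alone or after a letter code for the alpha, beta or gamma cluster. This gave 69 genes of 21938, namely 14 alpha, 22 beta and 21 gamma genes, which make up 57 clustered genes on chromosome 18, and 12 single genes that stand outside the clusters. A gene was counted as carrying a promoter site when at least 1 ASH2L site was centred within 1 kb of any of its annotated transcription start sites (TSSs). By this count 3 members carried a site, all of them single genes, and no clustered gene did.

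Protocadherins are cadherin-type adhesion molecules of the cell surface and are best known from neurons. Each variable exon of the alpha and gamma clusters has a promoter of its own and is spliced to constant exons shared by its cluster, while beta genes consist of a variable exon alone. A neuron uses a small, partly random choice of these promoters, a choice that depends on CTCF, cohesin, distal enhancers and DNA methylation, while the single genes (delta-protocadherins and a few others) are scattered over several chromosomes and have conventional promoters.

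Chromatin was collected from iMEF cells, immortalised mouse embryo fibroblasts whose floxed Ash2l alleles had been deleted through Cre-ER. In these cells a lentiviral construct supplied human ASH2L fused to a mutant form of FKBP12 and HA tags (FKBP-HA2-ASH2L). The study precipitated the fusion protein with HA antibodies. The 8 libraries formed 4 groups with 2 replicates each. These were the ASH2L precipitate and the input of untreated cells (called WT in the labels, although they carry the fusion protein in place of Ash2l) and the same pair of cells treated with dTAG, which directs the fusion protein to degradation, for 1 h. The study describes clonal lines, works mostly with the clone NG3 and calls the replicates of its histone ChIP-seq biological, while the labels name neither the clone nor the origin of the replicates. The site list analysed here covers all samples together and holds 6444 positions in mm10, 6428 of them on the 21 assembled nuclear chromosomes, with no value per site and no column per library. Values therefore have no replicate error, the depth of the libraries is not shown, and signal with and without dTAG was not analysed here. A gene without a site had none in the list, which sets no upper limit on binding, and expression of the genes was not measured in these libraries. Genes and sites are not replicates, so the counts below are descriptions with no test.

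Promoter sites were found at Pcdh7, Pcdh18 and Pcdh19. This was 3 of 69 members (4.35%), beside 3078 of all 21938 protein-coding genes (14.0%). Among the single genes the count was 3 of 12, but with sites at or above the median width only it was 1 of 12, beside 8.99% of all coding genes under that filter. Among the 57 clustered genes it was 0, which a filter on sites could not change. At all 12 single genes a CpG island lay within 1 kb of a start, and 19.0% of all coding genes with such an island carried a site. The number of annotated TSSs, each of which adds a window in which a site can fall, also differed between the sets. Whether it bears on the counts was not tested. The single genes had a median of 5 TSSs, and 22.9% of all coding genes with 5 or more TSSs had a site. Of the clustered genes, 37 had 1 TSS, and 4.85% of all coding genes with 1 TSS had a site. The 8 sites within 1 kb were divided unevenly, with 6 at Pcdh7 and 1 each at Pcdh18 and Pcdh19. Widening the window to 3 kb added 1 site, also at Pcdh7, and no further gene, while 15.4% of all coding genes had a site in that window.

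Pcdh7 (ENSMUSG00000029108.14, chr5:57717967-58133230, plus strand) encodes a delta-1 protocadherin whose cytoplasmic part binds protein phosphatase PP1 and SET. It had 6 promoter sites, a number reached by 4 coding genes in all. The number depends on how a near-continuous stretch was divided into peaks, since it was 1 when sites within 1 kb of each other were merged. It also depends on the TSS set, and was 2 with the gene start as the only TSS. The other genes with at least 6 sites were Tcf4, encoding an E-protein transcription factor, with 9, Foxp1, a forkhead repressor, with 7, and Runx2, the osteoblast factor, with 6. Tcf4 has 58 annotated TSSs, Foxp1 22 and Runx2 11, whereas Pcdh7 has 7, which lie within 4242 bp. Of the 1179 coding genes with 7 TSSs, 265 had a site, with a median of 1, and Pcdh7 alone had 6 or more.

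The Pcdh7 sites ran from upstream of the gene through the untranslated part and far into the coding part of its large first exon. The most upstream one was centred 1217.5 bp before the gene start (254 bp) and lay just outside the 1-kb window. The next was centred 606 bp before the start (chr5:57717180-57717542, 363 bp) and lay inside it. The widest, of 1603 bp (chr5:57717797-57719399), began upstream of the start, covered the 5' untranslated region and ended in the coding sequence, with its centre 631 bp downstream of the start. In the whole list 159 sites were wider than 1 kb, and this one ranked 72 by width.

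The remaining Pcdh7 promoter sites were centred in coding sequence. A site of 709 bp (chr5:57719424-57720132) was centred 1811 bp downstream of the gene start and a site of 847 bp (chr5:57720175-57721021) 2631 bp downstream. The last ones, of 200 bp (chr5:57721162-57721361) and 228 bp (chr5:57721515-57721742), were centred 3294.5 and 3661.5 bp downstream and were narrow, 200 bp being the smallest width in the list. Together with the upstream site they formed a near-continuous stretch of 5120 bp, in which 7 sites covered 4204 bp (82.1%). When all sites within 1 kb of each other were joined into 5621 regions, this stretch ranked 24 by span and 22 by covered length. Only 8 regions held as many sites. Away from the promoter, intron sites of 256 bp (chr5:57755894-57756149) and 398 bp (chr5:57868037-57868434) were centred 38054.5 and 150268 bp downstream of the gene start.

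**Figure D1:**
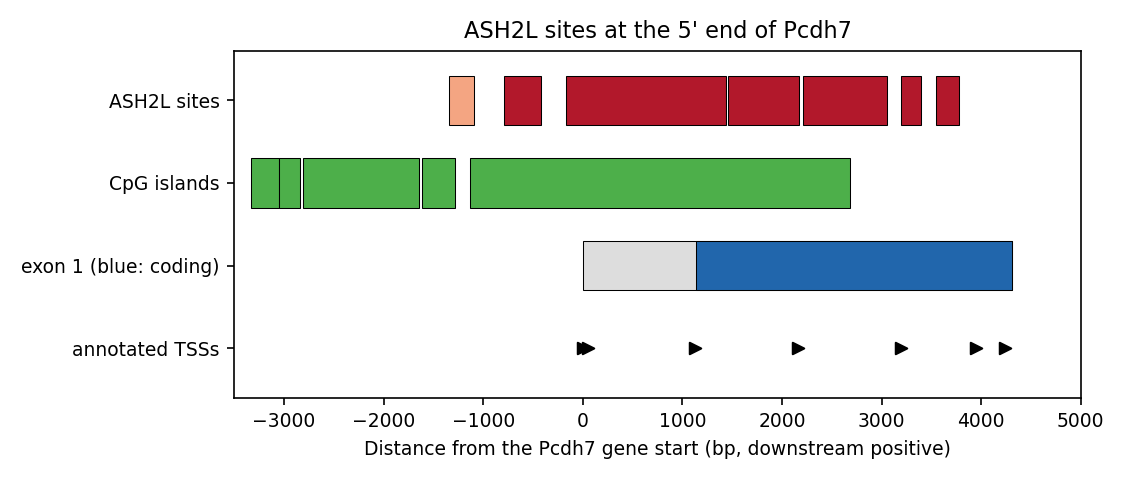
Map of the 5' end of Pcdh7, with distance from the gene start in bp on the x axis; rows show ASH2L sites (red, centred within 1 kb of a TSS; pale, between 1 and 3 kb), CpG islands, exon 1 (grey untranslated, blue coding) and annotated TSSs (arrowheads). The 7 sites span 5120 bp and the last ones lie beyond the end of the 3823-bp island.

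A second gene overlaps this stretch. The lncRNA 4932441J04Rik (chr5:57570082-57720201) lies on the opposite strand to Pcdh7 and its annotated exons cover the centres of both upstream sites, of the widest site and of the site at 1811 bp. Its own 5' end, at 57720201, falls inside the site centred at 2631 bp (chr5:57720175-57721021). The list does not assign a site to a gene, and the sites of Pcdh7 and of the lncRNA cannot be told apart there. The 6 TSSs of protein-coding Pcdh7 transcripts alone still gave 6 promoter sites, while the gene start alone gave 2, since the other TSSs are starts of shorter transcripts annotated within the first exon.

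Base composition was richest in CpGs in the middle of the stretch and poorer towards both ends. The main CpG island of Pcdh7 (chr5:57716829-57720651) was 3823 bp long and filled the whole window of 1 kb to either side of the gene start. The most upstream site, centred 1217.5 bp before the start, was 41.3% covered by islands and had an observed to expected CpG ratio of 0.426 and a GC content of 48.0%. The sites centred 606 bp upstream, 631 bp downstream and 1811 bp downstream lay wholly in this island, with CpG ratios of 0.886, 0.790 and 0.899 and GC contents of 63.1%, 60.9% and 65.2%. The site at 2631 bp was 56.3% covered by it and had a ratio of 0.662. The last ones lay outside every island, with ratios of 0.351 and 0.165 and GC contents of 48.0% and 46.1%. For comparison, the 3168 promoter sites of all coding genes had a median GC content of 66.5% (quartiles 57.3% and 73.0%) and a median ratio of 0.878, and 92.0% of them overlapped an island. Only 1.83% of them had a CpG ratio as low as the site at 3661.5 bp.

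The sequences below show the part of this course from the island into the coding sequence of Pcdh7. They are from the GRCm38.p6 (mm10) assembly of RefSeq, plus strand, 5′ to 3′, with CpG dinucleotides in capitals, and run from the site 606 bp upstream through the start codon (the first 3 bases of the coding part of the widest site) to the CpG-poor coding sites. The last sites are given whole, the widest by its coding part and the others by their middle 200 bp, and the most upstream site, which is poorer in CpGs, is not shown.
Pcdh7, middle of the site 606 bp upstream, chr5:57717261-57717460: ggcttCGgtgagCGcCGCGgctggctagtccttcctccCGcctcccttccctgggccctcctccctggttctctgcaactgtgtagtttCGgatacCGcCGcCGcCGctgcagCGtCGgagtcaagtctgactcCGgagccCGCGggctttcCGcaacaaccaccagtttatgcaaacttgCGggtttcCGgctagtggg
Pcdh7, coding part of the widest site, chr5:57719105-57719399: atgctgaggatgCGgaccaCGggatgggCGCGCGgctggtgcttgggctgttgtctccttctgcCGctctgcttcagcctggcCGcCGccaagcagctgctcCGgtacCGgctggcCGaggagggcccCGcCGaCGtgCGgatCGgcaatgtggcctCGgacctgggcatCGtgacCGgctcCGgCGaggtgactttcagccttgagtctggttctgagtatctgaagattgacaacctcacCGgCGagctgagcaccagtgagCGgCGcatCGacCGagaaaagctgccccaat
Pcdh7, middle of the site at 1811 bp, chr5:57719678-57719877: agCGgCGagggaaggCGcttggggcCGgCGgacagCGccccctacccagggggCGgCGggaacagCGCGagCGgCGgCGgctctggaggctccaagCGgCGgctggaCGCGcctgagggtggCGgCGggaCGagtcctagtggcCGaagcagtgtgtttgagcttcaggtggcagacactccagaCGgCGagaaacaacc
Pcdh7, middle of the site at 2631 bp, chr5:57720498-57720697: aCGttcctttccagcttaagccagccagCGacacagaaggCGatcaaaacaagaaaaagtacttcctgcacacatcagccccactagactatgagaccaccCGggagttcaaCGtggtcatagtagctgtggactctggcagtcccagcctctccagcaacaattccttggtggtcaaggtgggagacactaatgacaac
Pcdh7, site at 3294.5 bp, chr5:57721162-57721361: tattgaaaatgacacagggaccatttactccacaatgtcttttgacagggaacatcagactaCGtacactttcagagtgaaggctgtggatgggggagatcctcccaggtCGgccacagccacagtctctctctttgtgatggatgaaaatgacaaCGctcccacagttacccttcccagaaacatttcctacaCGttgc
Pcdh7, site at 3661.5 bp, chr5:57721515-57721742: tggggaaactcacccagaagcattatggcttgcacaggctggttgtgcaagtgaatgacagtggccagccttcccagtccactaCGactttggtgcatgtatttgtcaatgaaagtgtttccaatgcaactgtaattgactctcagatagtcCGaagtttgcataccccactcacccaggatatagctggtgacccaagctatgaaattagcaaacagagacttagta
The 200 bases around the centre at 1811 bp hold 23 CpGs, whereas the 254 bases of the most upstream site hold 6 and the 228 bases of the last site 2.

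Pcdh18 (ENSMUSG00000037892.13, chr3:49743296-49757325, minus strand) is a delta-2 protocadherin. Its site (chr3:49757421-49757622) was 202 bp wide and centred 196.5 bp upstream of the gene start, wholly inside an island of 782 bp (chr3:49756889-49757670). It had 15 CpGs, a GC content of 64.4% and a CpG ratio of 0.763, so that its GC content and ratio were below the medians of coding promoter sites, with the GC content inside their quartiles. Pcdh19 (ENSMUSG00000051323.16, chrX:133582860-133688987, minus strand) is the delta-2 protocadherin mutated in a female-limited epilepsy. Its site was 251 bp wide and lay not at the gene start but in coding sequence 2948 bp downstream of it, 146 bp before an internal annotated TSS. The site overlapped the end of an island of 3291 bp (chrX:133685938-133689228) over 90.4% of its width and had 12 CpGs, a GC content of 55.4% and a ratio of 0.626. When only gene starts were used, Pcdh19 had no site. Few X-linked genes had any, 24 of 948 (2.53%).

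These sequences show, in the direction of the gene and with CpGs in capitals, the Pcdh18 site and, for contrast, a CpG-rich stretch before the first exon of Pcdh10, a single gene on the same chromosome as Pcdh18 that had no site. Both are from the RefSeq GRCm38.p6 assembly (mm10).
Pcdh18, site, chr3:49757421-49757622, minus strand: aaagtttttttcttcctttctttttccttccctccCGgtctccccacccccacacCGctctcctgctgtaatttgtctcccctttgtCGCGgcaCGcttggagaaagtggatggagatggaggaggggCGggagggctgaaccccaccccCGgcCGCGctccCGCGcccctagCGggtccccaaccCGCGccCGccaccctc
Pcdh10, upstream of the gene start, no site, chr3:45378261-45378397, plus strand: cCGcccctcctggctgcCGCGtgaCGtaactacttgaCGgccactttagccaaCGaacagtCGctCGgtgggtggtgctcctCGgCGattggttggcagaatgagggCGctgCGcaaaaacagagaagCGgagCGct
The Pcdh10 stretch holds 14 CpGs in 137 bp, and the Pcdh18 site 15 in 202 bp.

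**Figure D2:**
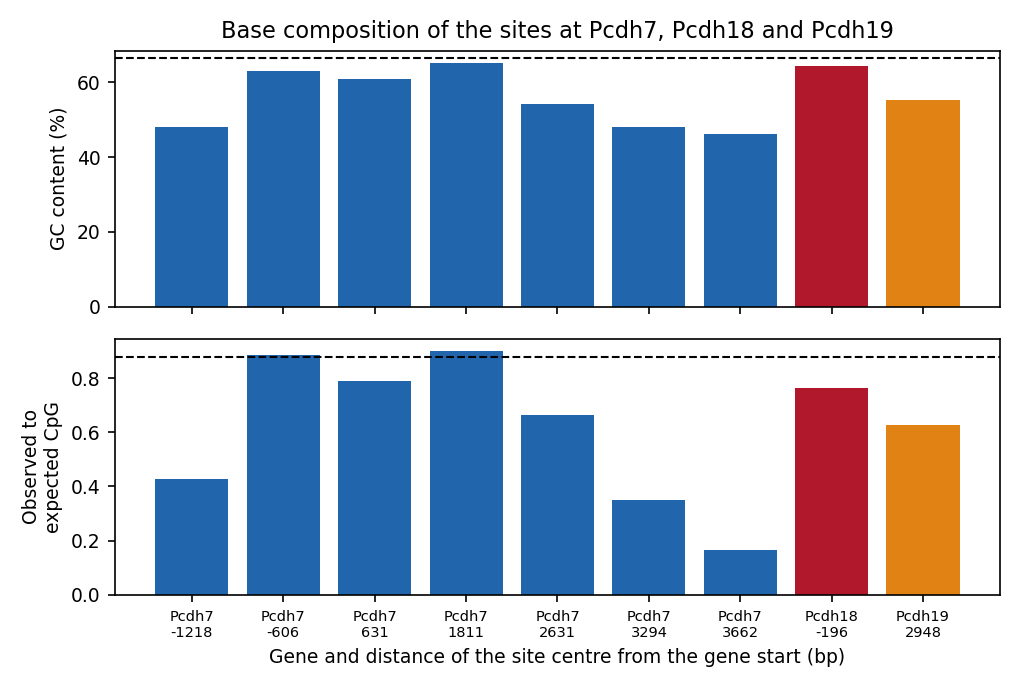
Bars give the GC content (%, top) and the observed to expected CpG ratio (bottom) of the 7 sites within 3 kb of a Pcdh7 TSS and of the Pcdh18 and Pcdh19 sites, with the distance of each centre from the gene start in bp; dashed lines are the medians of the 3168 promoter sites of coding genes (66.5% and 0.878). Along Pcdh7 both values are lower at the most upstream site and at the last coding sites than at the sites inside the island.

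The other 9 single genes had no site, although most have CpG-rich starts. Within 1 kb of the gene start, the GC content and CpG ratio were 58.3% and 0.767 at Pcdh15, a component of the tip links of hair cells, although its annotated start is that of retained-intron transcripts and the first protein-coding TSS lies 722525 bp downstream. They were 57.0% and 0.722 at Pcdh8, the paraxial protocadherin of somite formation, and 52.5% and 0.729 at Pcdh17, a delta-2 protein of synapses and axons. These lie in the range of the genes with a site, which had 58.9% and 0.808 at Pcdh7, 47.1% and 0.667 at Pcdh18 and 58.8% and 0.603 at Pcdh19. Pcdh10 (OL-protocadherin, which acts in axon growth) had 50.8% and 0.645, and the delta-1 gene Pcdh9 had 53.0% and 0.627. Pcdh1, a delta-1 protocadherin of airway epithelium, had the highest GC content of the single genes, 63.9%, with a ratio of 0.713. Lower ratios were found at Pcdh11x (0.453), Pcdh20 (0.356) and Pcdh12, the vascular endothelial protocadherin (0.220). Composition thus overlapped between single genes with and without a site.

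**Figure D3:**
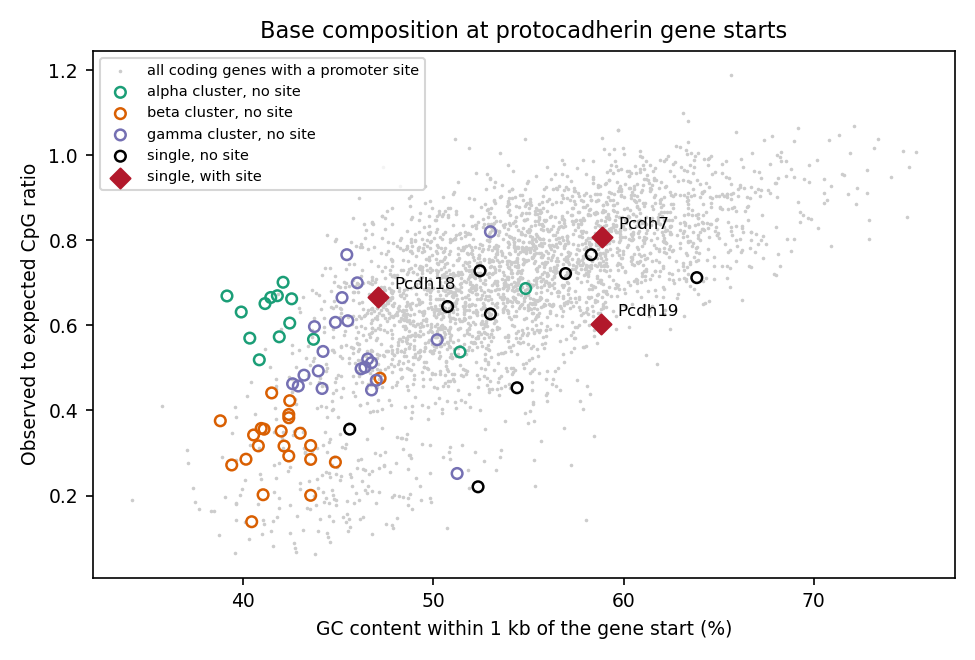
Each symbol is a gene, with the GC content (%) within 1 kb of the gene start on the x axis and the observed to expected CpG ratio on the y axis; grey dots are the 3078 coding genes with a promoter site, open circles protocadherin genes without a site by cluster, and red diamonds Pcdh7, Pcdh18 and Pcdh19. Most alpha genes lie at a lower GC content than most genes with a site, with CpG ratios of up to 0.702, and most beta genes are low in both.

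By role, 1 of 4 delta-1 genes (Pcdh7), 2 of 5 delta-2 genes (Pcdh18 and Pcdh19) and 0 of 3 other single genes (Pcdh12, Pcdh15, Pcdh20) had a site, beside 14.0% of all coding genes and 19.0% of those with an island, and the subgroups are too small to set them apart. Several of the single genes without one were far from any site. From the nearest TSS to the nearest site it was 2963 kb at Pcdh9, 2430 kb at Pcdh11x, 1889 kb at Pcdh10 and 1176 kb at Pcdh17. Pcdh11x lies on X, where 2.53% of coding genes had a site, and Pcdh8, Pcdh9, Pcdh17 and Pcdh20 all lie on chromosome 14. Of all coding genes, 1.26% lay as far from a site as Pcdh9 and 4.80% as far as Pcdh17, against a median of 93.8 kb (quartiles 21.3 and 272 kb). The distance was 977 kb at Pcdh20, 429 kb at Pcdh15, 290 kb at Pcdh8, 207 kb at Pcdh1 and 135 kb at Pcdh12. No member lay between the 196.5 bp of Pcdh18, the farthest of those with a site, and the 135 kb of Pcdh12, the nearest of those without.

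The clusters were free of sites over their whole length, introns and constant exons included. The alpha cluster (chr18:36930184-37187661, 257 kb), the beta cluster (chr18:37264938-37524479, 260 kb) and the gamma cluster (chr18:37661793-37841873, 180 kb) carry 24, 26 and 36 annotated TSSs. Their gene starts follow each other at median distances of 7.32, 7.78 and 5.35 kb. All 14 alpha genes end within 10 bp of the end of their cluster, and so do all 21 gamma genes, and this is where the constant exons lie. The nearest site was 146 to 360 kb from an alpha TSS, 481 to 734 kb from a beta TSS and 600 to 757 kb from a gamma TSS. All of these exceed the median of coding genes, and the beta and gamma distances exceed its upper quartile.

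The clusters lay inside a single site-free stretch of 1635 kb (chr18:36783824-38419025). It was bounded by a site of 206 bp (chr18:36783618-36783823) near Hars2, encoding the mitochondrial histidyl-tRNA synthetase, 146 kb before the first alpha gene. On the other side a site of 348 bp (chr18:38419026-38419373) lay near an internal TSS of Ndfip1, an adaptor of NEDD4 ubiquitin ligases, 577 kb after the gamma cluster. The stretch also holds Pcdh1 and Pcdh12, so that 59 members lay in it. By length it ranked 314 of 6407 intervals between neighbouring sites (4.90% were as long or longer, median 151 kb).

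By gene content it stood near the top of the intervals. It held 74 starts of coding genes, rank 9, and 59 starts of coding genes with a CpG island, rank 2, where the richest interval held 67 and the median was 1. Of those island genes 44 were protocadherins and 15 were others. The others were Zmat2, Slc25a2, Taf7, Diaph1, Hdac3, Rell2, Fchsd1, Arap3, Dele1, Rnf14, Gnpda1 and Ndfip1, and the 3 gene models Gm42416, Gm37013 and Gm37388. These models start inside the alpha cluster and end inside the gamma cluster, so they are not separate from the protocadherin loci, although they add to the counts of 15, 59 and 74. Of these 15, only Ndfip1 had a promoter site, the bounding one. Hdac3, the deacetylase of the NCoR complex, and Taf7, a TFIID subunit, are general genes with island promoters, and they too had no site. This was the common state, as only 19.0% of all coding genes with an island had one. Of the 454 coding genes of chromosome 18 that are not protocadherins, these 15 included, 20.5% had a promoter site.

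**Figure D4:**
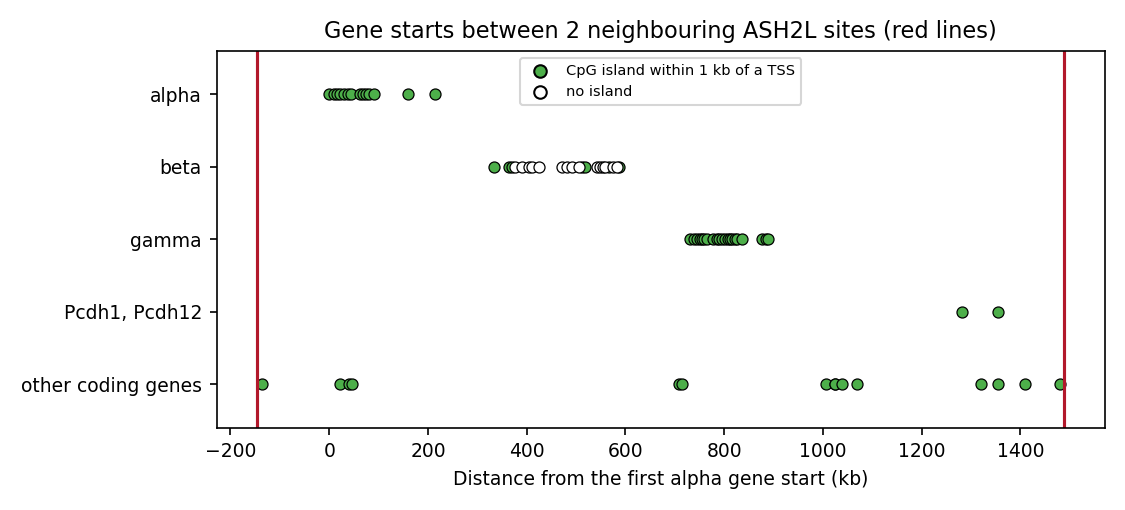
Gene starts in the site-free stretch of 1635 kb, with distance in kb from the first alpha gene start on the x axis and rows for the alpha, beta and gamma clusters, Pcdh1 and Pcdh12, and other coding genes; filled circles have an island within 1 kb of a TSS and open circles none. Red lines are the bounding ASH2L sites, with none between them.

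**Figure D5:**
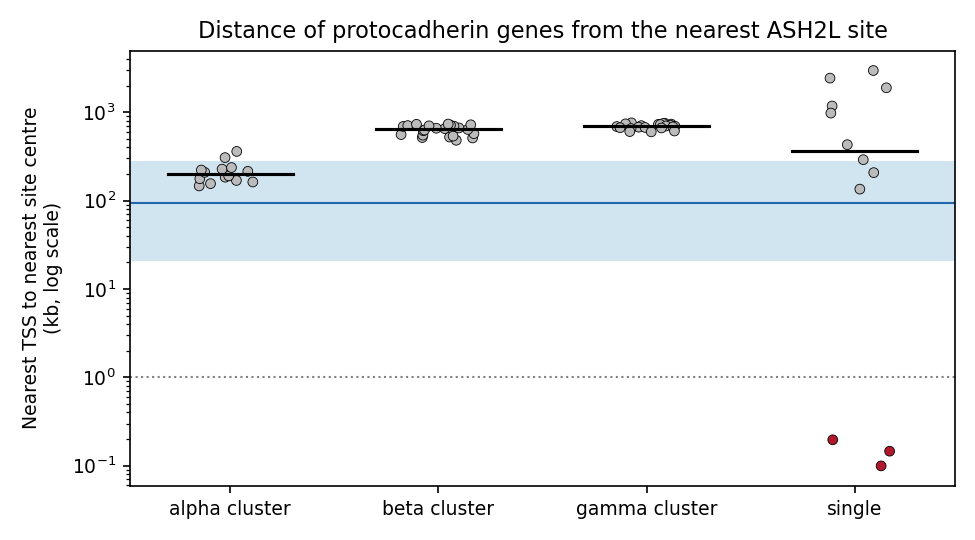
Distance from the nearest TSS to the nearest site centre in kb (log axis) for each protocadherin gene by group, red for genes with a promoter site and grey for those without; bars are group medians, the blue line and band are the median and quartiles of all coding genes (93.8, 21.3 and 272 kb), and the dotted line is 1 kb. Clustered genes lie between 146 and 757 kb, while single genes reach from under 1 kb to 2963 kb.

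CpG islands lay near the starts of all alpha and gamma genes but of few beta genes. An island lay within 1 kb of a TSS at 14 of 14 alpha genes, 21 of 21 gamma genes and 7 of 22 beta genes, beside 73.4% of all coding genes. Within 1 kb of the gene start, island sequence had a median of 616.5 bp in the alpha, 847 bp in the gamma and 0 bp in the beta cluster, against 712 bp in all coding genes, 1442 bp in the single genes and 1123.5 bp in coding genes with a site. Under the requirement that the island overlap a TSS, 6 alpha, 2 beta and 13 gamma genes remained, beside 65.9% of all coding genes, so that all 3 clusters were then below the share of all genes. A stricter island definition (500 bp, 55%, 0.65) gave 13 of 14 alpha, 1 of 22 beta and 13 of 21 gamma genes, beside 59.9% of all coding genes. There the alpha and gamma clusters stayed above the share of all genes, gamma only slightly.

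The clusters combined a low GC content with CpG ratios that differed between them. The median GC content was 41.9% in the alpha, 42.1% in the beta and 45.5% in the gamma cluster, lower than the 53.7% of the single genes and the 51.2% of all coding genes. The median CpG ratio was 0.642 in the alpha, 0.512 in the gamma and 0.330 in the beta cluster, beside 0.475 for all coding genes and 0.713 for those with a site. Among all coding genes with an island, the share with a site was similar on both sides of a GC content of 50%, namely 17.7% at or below it and 19.5% above it. The lower set reaches up to 50%, so this split does not show the share among genes with a GC content like that of the clusters.

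The C-type genes (Pcdhac1, Pcdhac2, Pcdhgc3, Pcdhgc4 and Pcdhgc5), which lie at the end of the alpha and gamma clusters and are used without the random choice of the other isoforms, resembled the single genes more in GC content, 50.2% to 54.9%. Island sequence at their starts was 1411 bp at Pcdhgc3, 1330 bp at Pcdhgc4, 1172 bp at Pcdhac2 and 1060 bp at Pcdhac1, but 204 bp at Pcdhgc5. The CpG ratio was 0.821 at Pcdhgc3 and 0.252 at Pcdhgc5, which was above and below all other gamma genes. None of the 5 had a site, and the nearest one was 306 to 613 kb away.

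Motifs were counted from 250 bp before to 50 bp after each gene start, on both strands. The tetramer CGCT, the core of the conserved promoter element of clustered protocadherins, was present at 65 of 69 members, including 14 of 14 alpha genes, 95.5% of beta and 95.2% of gamma genes and 83.3% of single genes. Being short, it was also present at 67.1% of all coding promoters. The core of the CTCF consensus was matched at 0 members and 0.556% of all coding promoters. The core searched does not contain the tetramer, but the longer consensus of CTCF does, so these are not separate motifs. A match or its absence is a statement on these letters in these windows and not on binding of a factor.

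Genes known to act with protocadherins were compared by the same count. Of 24 regulators of the clustered genes (CTCF, cohesin and DNA or histone methylation), 10 had a promoter site (41.7%), all with a CpG island, beside the 14.0% of all and 19.0% of island genes given above. They had a median of 7 TSSs. The site was centred within 1 kb of TSSs of Ctcf, the insulator protein, of the cohesin genes Rad21, Smc3, Stag1 and Stag2, of Nipbl, which loads cohesin, of Wapl and Pds5a, which act in its release, of Dnmt3b, a DNA methyltransferase, and of Wiz, a zinc finger protein of the G9a complex. Nipbl and Stag1 had 2 sites each. Those without a site included Smc1a, Pds5b, Smchd1, Setdb1, Rest, Hells, Ehmt1, Ehmt2, Dnmt1, Dnmt3a and the Tet genes. Nipbl and Rad21 lie on chromosome 15, where 18.1% of coding genes had a site.

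Among 39 other cadherin superfamily and catenin genes, 6 had a site (15.4%), a share near that of all coding genes. They were Cdh2 (N-cadherin, a classical cadherin of mesenchymal cells), the neuronal type II cadherins Cdh10 and Cdh18, Fat4, a large cadherin of planar polarity, Ctnna3 (alpha-T-catenin) and Ctnnd1 (p120-catenin). Cdh18 had no CpG island, and both Cdh10 and Cdh18 are on chromosome 15. By subgroup the counts were 3 of 23 Cdh genes, 1 of 9 Fat, Dchs and Celsr genes and 2 of 7 catenins. Of 19 intracellular partners of protocadherins, 4 had a site (21.1%), which is close to the share of all coding genes with an island (19.0%), as all 19 have, and with 5 or more TSSs (22.9%), their median being 6. These were Set, the chromatin protein and phosphatase inhibitor that binds Pcdh7, with 2 sites, Adam10, a protease that sheds cadherin ectodomains, and Nckap1 and Wasf1, subunits of the WAVE complex of actin assembly. Ctnna3 and Wasf1 are on chromosome 10, where 16.3% of coding genes had a site.

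The Hox genes offer a comparison with other gene clusters rich in islands. A promoter site was present at 13 of 39 Hox genes (33.3%), beside 14.0% of all coding genes and 19.0% of those with an island. These were 8 of 11 in Hoxa (Hoxa2, Hoxa3, Hoxa5, Hoxa7, Hoxa9, Hoxa10, Hoxa11 and Hoxa13) and 5 of 9 in Hoxd (Hoxd8, Hoxd9, Hoxd11, Hoxd12 and Hoxd13). The count was 0 of 10 in Hoxb and 0 of 9 in Hoxc, whose genes were at median distances of 232 and 237 kb from a site. All 39 had an island, so a cluster of island genes without any site was not limited to protocadherins in this list.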

How the data were processed

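ASH2L ChIP-seq libraries and their inputs were prepared from iMEF cells (see above). The authors used Trim Galore for trimming, BWA for alignment to mm10, SAMtools for filtering, Picard for merging of replicates and MACS for narrow peaks. The threshold and the way in which samples were combined into the list are not given in the sources used here. The deposited values in the list used here are genomic positions only (chromosome, start and end in bases), with no count, score or signal per library, so depth and replicate error are not shown and no test was made. The study also names a table of ASH2L sites that changed after 1 h of dTAG, which was not used here. Starts were read as counted from 0 and are printed counted from 1.

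TSSs were taken from GENCODE mouse release 21 (the authors used release 25) and sequence from GRCm38.p6. Each site was represented by its centre, and 16 sites on other sequences than the assembled nuclear chromosomes were not used. CpG islands were merged 200-bp windows in which GC exceeded 50% and observed CpGs exceeded 0.6 of the expected number. Composition was computed within 1 kb of the gene start. Of the members, 9 matched a RefSeq promoter entry. Every member with a site, every single gene and every C-type gene was named, and of the other lists every gene with a site; the genes named without one were added after their values were seen. A listed gene and some site sequences are not reported here. Members and lists were chosen with earlier results of these data known, and the splits of all coding genes by TSS number and GC content were chosen after seeing the data. Alternatives changed the window, the TSS set, the site widths, the merging of sites, the island definition and the motif window. Scripts ran in Python 3.11.15 with NumPy 2.4.6 and pandas 2.3.3, figures were drawn with matplotlib 3.10.9, and the functions were tested on simulated data.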

Additional observations from a re-analysis of the deposited data

How the results depend on the processing

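The list has no strength per site, so width stood in for a stricter peak threshold. With sites at or above the median width of 268 bp only, 1 protocadherin gene (Pcdh7) and thus 1 single gene carried a site instead of 3, beside 8.99% of all coding genes under this filter, and the sites near protocadherin TSSs fell from 8 to 4. With the gene start as the only TSS these sites numbered 3, 2 of them at Pcdh7, and with sites within 1 kb merged they numbered 3, 1 of them at Pcdh7. The count of clustered genes with a site was 0 under all 7 alternatives. As no site lay within 146 kb of a clustered TSS, these alternatives could give no other value and do not measure how firm the count is. Island counts depended on the definition. Under the stricter one (500 bp, 55%, 0.65) 13 alpha, 1 beta and 13 gamma genes had an island (59.9% of all coding genes), and with islands overlapping a TSS 6 alpha, 2 beta and 13 gamma genes did (65.9% of all coding genes). Of 45 alternatives over 11 results, 33 stayed within 1.5 times of the value given, the 7 for clustered genes included. No paired analysis was possible because the list holds no value per library, and leaving out replicates, other normalizations and count filters could not be run for the same reason. Mappability of the repeated variable exons was not modelled, and depth limits which weak sites the list can hold.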
